A study of Mus musculus with 51 samples.

Results

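Genes of ribosome biogenesis and the nucleolus were followed across every group of a mouse prostate experiment: 31 genes taken by name from a list of polymerase I subunits, nucleolar scaffold proteins, small nucleolar ribonucleoprotein (snoRNP) subunits and assembly factors of the small and large ribosomal subunits. All probe sets that carry a single gene symbol on the list were used, which gave 50 probe sets for 29 genes in each of the 2 deposited expression tables. Mrto4 and Dkc1 had no such probe set and have no value here. The arrays carry 12392 genes with a single-symbol probe set in all, and 26 of the 29 members were bright enough to be tested in each table. Each gene is represented by its brightest probe set, and other probe sets are given for the members described in detail.

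Ribosome production starts in the nucleolus, where RNA polymerase I transcribes the large ribosomal RNA precursor. Box C/D and box H/ACA snoRNPs methylate and pseudouridylate the precursor, and successive assembly factors cut it, fold it and add ribosomal proteins before the small and large subunits leave the nucleus. The pathway is a well-known target of growth signalling through AKT and the kinase mTOR, and enlarged nucleoli are a long-described feature of prostate neoplasia.

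The samples were ventral prostates of FVB mice aged 8 to 10 weeks, either wild type or carrying a transgene for AKT1, and RNA was read on Affymetrix arrays. Mice received placebo or RAD001 (everolimus), a rapamycin derivative that inhibits the mTOR complex 1. The wild type animals all received placebo, for 12 h (4 arrays), 48 h (4) or 15 d (3). Transgenic glands were taken after 12 h (placebo 4 arrays, RAD001 5), 48 h (5 and 4), 6 d (1 and 3), 9 d (1 and 4) and 15 d (7 and 6). No wild type animal received RAD001, and the labels as read here give neither the promoter of the transgene nor a dose. The 42 arrays of 12 h, 48 h and 15 d were scaled in a table separate from the 9 arrays of 6 d and 9 d, so levels were compared within a table only. Replicates are arrays that the labels call biological replicates. The p-values measure the spread between them, and their number sets the precision. Placebo groups of 6 d and 9 d hold 1 array each, so p-values there measure only the spread between RAD001 arrays.

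The median intensity of an array ran from 91.6 to 109.37 units (larger table) or from 98.1 to 110.4 (smaller table). Of all 51 arrays, 4 held more than 500 probe sets at 0: transgenic placebo 15 d replicates 8 and 9, RAD001 6 d replicate 1 and RAD001 9 d replicate 3. The 15 d arrays formed 2 sets on principal component 1, which carried 26.5% of the spread of log2 values. Set A holds all 3 wild type arrays, placebo replicates 1 and 2 and RAD001 replicates 1 and 2, and set B holds the other 9 arrays; the labels name no batch. Averaged over 12 h, 48 h and 15 d, the brighter Akt1 probe set read 0.17 ± 0.08 higher in transgenic placebo than in wild type prostates (log2, not called, limma adjusted p = 0.0936). Another rose by 0.88 ± 0.23 (limma adjusted p = 0.00289). By time the brighter read 0.51 ± 0.14, 0.15 ± 0.13 and -0.15 ± 0.14, and only the 12 h value passed. The other read 1.73 ± 0.41, 1.19 ± 0.39 and -0.28 ± 0.40, and the 15 d value did not pass. Both differences varied with time (limma adjusted p = 0.038 and 0.0256). Of the genes that mark the labelled tissue, Spink1, secreted by the ventral prostate, had a median of 8883 units in the larger table and the luminal keratin Krt8 one of 2786, while Svs6 of the seminal vesicle had one of 1.27. The glands are bulk samples, in which fewer cells of a type and less RNA per cell cannot be told apart.

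The sequence just upstream of the start sites was read for the members. RefSeq (GRCm38.p6) gave such windows for 26 of the 31 genes; Npm1, Nop53, Fbl, Bop1 and Rrs1 have none in the table used. The 250 bases before the start are printed for the 2 box H/ACA genes with a result below, Gar1 and Nhp2, and for Polr1b and Nop56, which stand for the polymerase and box C/D genes. Capitals mark CCGGAAG or its reverse complement CTTCCGG, the core of sites bound by ETS factors, and each sequence runs 5′ to 3′ on the strand of its gene.
Gar1 (chr3:129831397-129831646, reverse strand): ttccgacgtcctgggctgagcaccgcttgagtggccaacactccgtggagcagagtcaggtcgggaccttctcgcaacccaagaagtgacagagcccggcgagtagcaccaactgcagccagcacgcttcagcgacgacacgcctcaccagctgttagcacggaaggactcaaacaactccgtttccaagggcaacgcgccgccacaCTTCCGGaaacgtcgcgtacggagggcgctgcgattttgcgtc
Nhp2 (chr11:51619523-51619772, forward strand): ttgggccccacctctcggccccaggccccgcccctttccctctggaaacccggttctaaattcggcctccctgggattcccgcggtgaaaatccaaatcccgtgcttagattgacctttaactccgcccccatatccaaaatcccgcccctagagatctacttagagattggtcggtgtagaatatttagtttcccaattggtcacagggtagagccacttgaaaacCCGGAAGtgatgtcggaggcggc
Polr1b (chr2:129100746-129100995, forward strand): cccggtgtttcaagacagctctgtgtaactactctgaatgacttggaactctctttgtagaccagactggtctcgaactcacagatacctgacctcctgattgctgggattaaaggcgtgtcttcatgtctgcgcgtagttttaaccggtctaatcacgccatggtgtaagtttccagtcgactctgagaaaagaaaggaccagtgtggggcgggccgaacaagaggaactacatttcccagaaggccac
Nop56 (chr2:130274162-130274411, forward strand): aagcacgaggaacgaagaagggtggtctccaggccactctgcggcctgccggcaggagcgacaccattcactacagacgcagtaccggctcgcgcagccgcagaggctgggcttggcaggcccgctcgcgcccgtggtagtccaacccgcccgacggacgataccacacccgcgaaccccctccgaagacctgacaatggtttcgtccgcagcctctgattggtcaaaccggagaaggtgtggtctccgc
The motif begins 43 bases before the start in Gar1 and 23 bases before it in Nhp2, and the Polr1b and Nop56 windows hold none. It occurred in 4 of 26 member genes (15.4%; also Nip7 and Nolc1), in 41 of 122 other genes of the pathway (33.6%) and in 7.83% of all 27025 genes with a window. The E-box CACGTG, the letters bound by MYC and its relatives, was in no member window (0 of 26 genes), against 10.7% of the other pathway genes and 6.86% of all genes. The GC box GGGCGG was in 16 of 26 member genes (61.5%), 58.2% of the other pathway genes and 35.4% of all genes. Member windows also held more G and C, with a median of 60% against 52.4% over all windows. The 3 motifs were searched on both strands (CACGTG is its own reverse complement, and GGGCGG was also read as CCGCCC), overlapping matches were each counted, and a match is a description of the letters only.

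The first comparison asked how the AKT1 transgene altered these genes in untreated glands. Averaged over 12 h, 48 h and 15 d, 6 of the 26 members tested differed between transgenic and wild type placebo prostates, 1 up and 5 down, at a limma adjusted p under 0.05. Across all 13574 probe sets 33.5% were called in the same comparison (15.1% up, 18.4% down), so the members' share over both directions is not above the background. The median log2 difference was -0.08 over the members and -0.04 over all probe sets. The smallest adjusted p-values were those of the nucleolar chaperone Npm1 and the large-subunit factor Nop53, both lower in the transgenic glands. For Nop53 this holds for its brightest probe set only, and 20 of the 26 members were not called. With the array set as a block, 6 members were again called (33% of all probe sets), but Ftsj3 (adjusted p 0.0612) and Rrp9 (0.0881) were lost while Polr1b, at 0.45 ± 0.12 (limma adjusted p = 0.00375), and Gnl3, at -0.19 ± 0.07 (0.0258), passed.

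**Figure D1:**
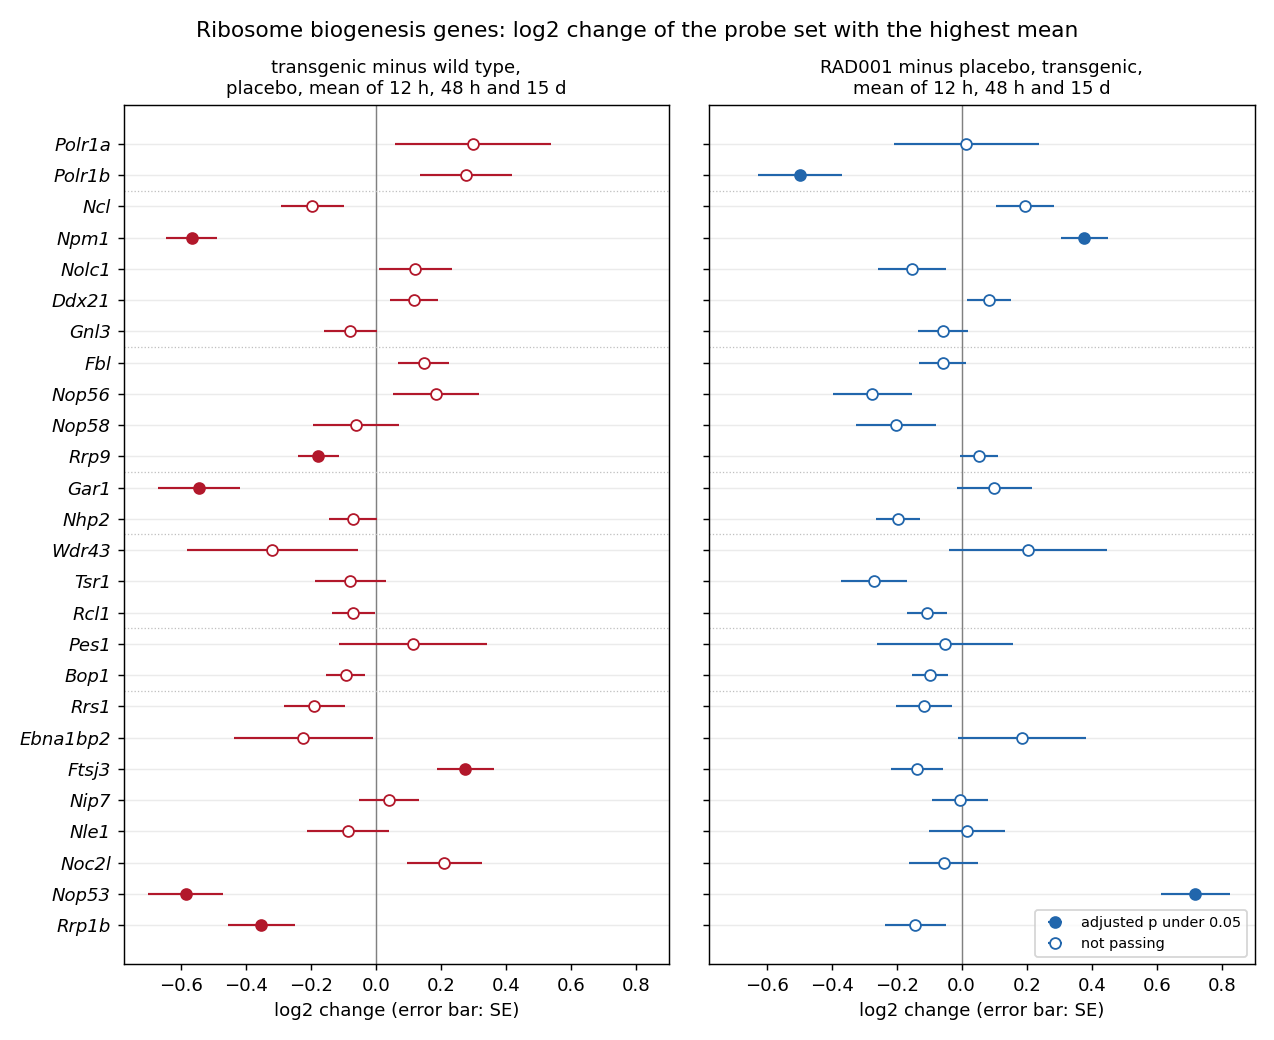
Difference in mean log2 intensity for each of the 26 members tested, grouped by role; bars are standard errors of the limma fit and filled points passed at an adjusted p under 0.05. The left panel shows transgenic minus wild type placebo and the right panel RAD001 minus placebo in transgenic glands, each averaged over 12 h, 48 h and 15 d; Npm1 and Nop53 lie left of 0 in the left panel and right of 0 in the right panel.

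Among the nucleolar scaffold genes, Npm1, an abundant chaperone of ribosome assembly and export, was the clearest case. In wild type glands it read 1012, 1077, 1341 and 1355 units at 12 h, 1013, 1146, 1179.8 and 1334 at 48 h and 996, 1013 and 1367 at 15 d. In transgenic placebo glands it read 731, 744, 773 and 899 at 12 h, 684, 692, 704, 719 and 881 at 48 h and from 681 to 1019.5 with a median of 798 at 15 d. The groups did not overlap at 12 h or 48 h, and at 15 d 1 transgenic array, replicate 9, stood above the lowest wild type array. Npm1 fell by 0.57 ± 0.08 on the log2 scale (± is the standard error of the fit; 1.48-fold; limma adjusted p = 5.22e-07), and its other probe set fell by 0.58 ± 0.10. The brighter probe set was called at each time taken alone, with falls of 0.60 ± 0.14, 0.67 ± 0.13 and 0.44 ± 0.14. At 15 d its call rested on wild type replicate 3, without which the limma adjusted p was 0.207, and within array set A the difference was -0.48 with an adjusted p of 0.125. The other Npm1 probe set differed by -0.32 ± 0.17 at 12 h and -0.42 ± 0.16 at 48 h, with overlap and no call. At 15 d, without the array set as a block, it fell by 1.01 ± 0.17 (limma adjusted p = 8.98e-05), with no overlap. Ncl (nucleolin), Nolc1 (a snoRNP chaperone), the RNA helicase Ddx21 and the GTPase Gnl3 did not pass, with differences of -0.20, 0.12, 0.12 and -0.08. Mouse Npm1 has near-identical processed copies in the genome, and a probe set does not separate their signal.

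Nop53, a nucleolar protein of late large-subunit maturation, followed the same order. Wild type glands read 481, 488, 545 and 594 units at 12 h, 522, 552, 579 and 603 at 48 h and 675, 736 and 749 at 15 d, whereas transgenic placebo glands read 247, 334, 339.6 and 467, 254, 305, 341, 418 and 461 and, at 15 d, from 416 to 687 with a median of 527. All 12 h and 48 h transgenic arrays were below all wild type arrays of the same time, and 1 transgenic array overlapped at 15 d. Nop53 fell by 0.59 ± 0.12 (limma adjusted p = 0.000125). Falls of 0.63 ± 0.20 at 12 h and 0.70 ± 0.19 at 48 h passed, and the 15 d difference of -0.43 ± 0.20 did not. The 12 h call was lost without wild type replicate 1 (adjusted p 0.0704), wild type replicate 4 (0.0515) or transgenic replicate 2 (0.124). The probe sets of this gene disagree: 1423803_s_at, used here, differs from 1451121_a_at (-0.35 ± 0.31) and 1452409_at (0.07 ± 0.10), neither of which was called.

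Other large-subunit factors moved less. Rrp1b, a nucleolar protein of the early large-subunit precursor, read 288, 324, 334 and 356 in wild type and 189, 208, 239 and 252 in transgenic glands at 12 h, with no overlap, but its groups overlapped at 48 h and 15 d. It fell by 0.35 ± 0.10 on average (limma adjusted p = 0.00736) and a second probe set fell by 0.32 ± 0.07. The 12 h fall of 0.56 ± 0.18 passed in 3 of the 8 fits that left out an array of the comparison (adjusted p up to 0.0912). At 48 h the brightest Rrp1b probe set differed by -0.11 ± 0.17 without a call. The second probe set fell there by 0.53 ± 0.12 (limma adjusted p = 0.000888), with all 5 transgenic arrays below all wild type arrays. Ftsj3, an rRNA methyltransferase, was the only member that rose, by 0.27 ± 0.09 (limma adjusted p = 0.0128). Its 12 h arrays read 68.7, 69.8, 72.5 and 78.1 in transgenic and 47.0, 48.6, 56.0 and 57.2 in wild type glands, without overlap, a rise of 0.47 ± 0.15. That call was lost without wild type replicate 2 (adjusted p 0.0765), wild type replicate 4 (0.0641) or transgenic replicate 2 (0.0711). Ftsj3 is dim: with values floored at 64 units it was called neither at 12 h (adjusted p 0.405) nor on average (adjusted p 0.11). The remaining members of this role (Rrs1, Ebna1bp2, Nip7, Nle1 and Noc2l) ranged from -0.22 to 0.21 and none was called.

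The snoRNP genes differed from each other. Gar1, a core protein of the box H/ACA particles that direct pseudouridylation, read 95.3, 109, 109.9 and 135 in wild type and 46.6, 51.9, 52.0, 57.1 and 71.8 in transgenic glands at 48 h, with no overlap. At 12 h it read 56.6, 68.0, 71.1 and 99.4 against 49.5, 50.7, 58.3 and 63.8, and the groups overlapped there and at 15 d. Gar1 fell by 0.54 ± 0.13 on average (limma adjusted p = 0.000822) and by 1.01 ± 0.21 at 48 h, which is 2.02-fold and the widest difference of any member at that time. Its partner Nhp2 did not pass in either direction (-0.07 ± 0.07). Rrp9, the protein specific to the U3 snoRNP, fell by 0.18 ± 0.06 (limma adjusted p = 0.0275), a small shift that was lost after median scaling (adjusted p 0.0669) and without wild type 12 h replicate 1 (0.0566), wild type 48 h replicate 2 (0.06), wild type 15 d replicate 1 (0.0769) or transgenic 12 h replicate 4 (0.0513). At 15 d Rrp9 read 141, 150.4 and 169 in wild type and from 112 to 137 with a median of 125 in transgenic glands; the groups did not overlap, and the fall of 0.30 ± 0.11 (limma adjusted p = 0.0462) passed in 3 of 10 fits that left out an array. Within array set A it was -0.20 with an adjusted p of 0.664.

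The box C/D methylation core behaved otherwise at 12 h. Fbl (fibrillarin, the methyltransferase) read 341, 358, 364 and 379 in transgenic and 181, 192, 263 and 336 in wild type glands, so every transgenic array was above every wild type array, and it rose by 0.62 ± 0.14 (limma adjusted p = 0.0014). The fibrillarin call held whichever array was left out. Its scaffold Nop56 had a like difference of 0.60 ± 0.24 without passing (limma adjusted p = 0.0655), and Nop58 read 0.15 ± 0.24. At 48 h the Fbl difference was -0.10 ± 0.13 and at 15 d -0.08 ± 0.14, neither called. The dimmer Fbl probe set read 0.28 ± 0.13 at 12 h, with overlapping groups, and was not called (limma adjusted p = 0.133).

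By time point, 5 of 26 members passed at 12 h (2 up, 3 down), 4 at 48 h (all down) and 2 at 15 d (both down). Of all probe sets, 21% passed at 12 h (10.8% up, 10.2% down), 25.6% at 48 h (11.4% up, 14.2% down) and 21% at 15 d (10.1% up, 10.9% down). The member medians were 0.12, -0.13 and -0.17, against -0.02, -0.01 and -0.08 over all probe sets. Over both directions, none of these shares exceeds the share called over all probe sets in the same fit. The 15 d calls and their background depend on the array sets: all wild type 15 d arrays lie in set A and 5 of the 7 transgenic placebo arrays in set B. With the set as a block 3 of 26 members were called at 15 d against 4.45% of all probe sets. Npm1 kept its call, Rrp9 lost it (adjusted p 0.477), and Nop53, at -0.73 ± 0.22 (limma adjusted p = 0.0464), and Gnl3, at -0.43 ± 0.13 (0.0485), passed. Within set A, 1 of 24 was called, Gnl3, against 2.69%. Tsr1, a factor of late small-subunit maturation, was called at 48 h only, where it read 101, 127, 151 and 156 in wild type and 62.0, 77.1, 83.7, 100 and 104 in transgenic glands and fell by 0.65 ± 0.19 (limma adjusted p = 0.00879); 1 transgenic array stood above the lowest wild type array. At 12 h the count was 3 without wild type replicate 1 or transgenic replicate 2 and 2 without wild type replicate 4, and at 15 d it ranged from 0 without wild type replicate 3 to 6 without transgenic replicate 2, with 1 without wild type replicate 1 or transgenic replicate 8, 9 or 10. Polymerase I subunits Polr1a and Polr1b, small-subunit factors Wdr43 and Rcl1, and the PeBoW complex proteins Pes1 and Bop1, which act together in large-subunit rRNA processing, passed at no time in the fit without the block.

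Cell type markers moved in the same comparison. Of 12 smooth muscle markers tested 9 fell, and their summed intensity ran from 5706 to 9581 in transgenic placebo and from 11077 to 17148 in wild type arrays; Myh11, Des, Smtn and Myl9 each read 0 on 1 array. Fibroblast and matrix markers fell in 6 of 11 (sums 3472 to 5934 against 5804 to 9610), 4 of 7 basal markers fell, and 6 of 13 luminal markers rose (sums 21147 to 35304 against 18842.5 to 22428). Their part in the differences of Npm1, Nop53, Gar1 and the others was not tested.

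The second comparison asked what RAD001 did in transgenic glands. It shares the transgenic placebo arrays with the genotype comparison, so opposite signs in the 2 comparisons are not independent and the values are given side by side only. Averaged over 12 h, 48 h and 15 d, 3 of 26 members were called, Npm1 and Nop53 up and Polr1b down, against a background of 10.3% of probe sets (5.64% up, 4.62% down). The member median was -0.06 and that of all probe sets 0.02. The 3 calls held in each of the 31 fits that left out an array and when the 15 d arrays were restricted to set A or to set B. The number of members called rose to 5 without RAD001 48 h replicate 1.

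**Figure D2:**
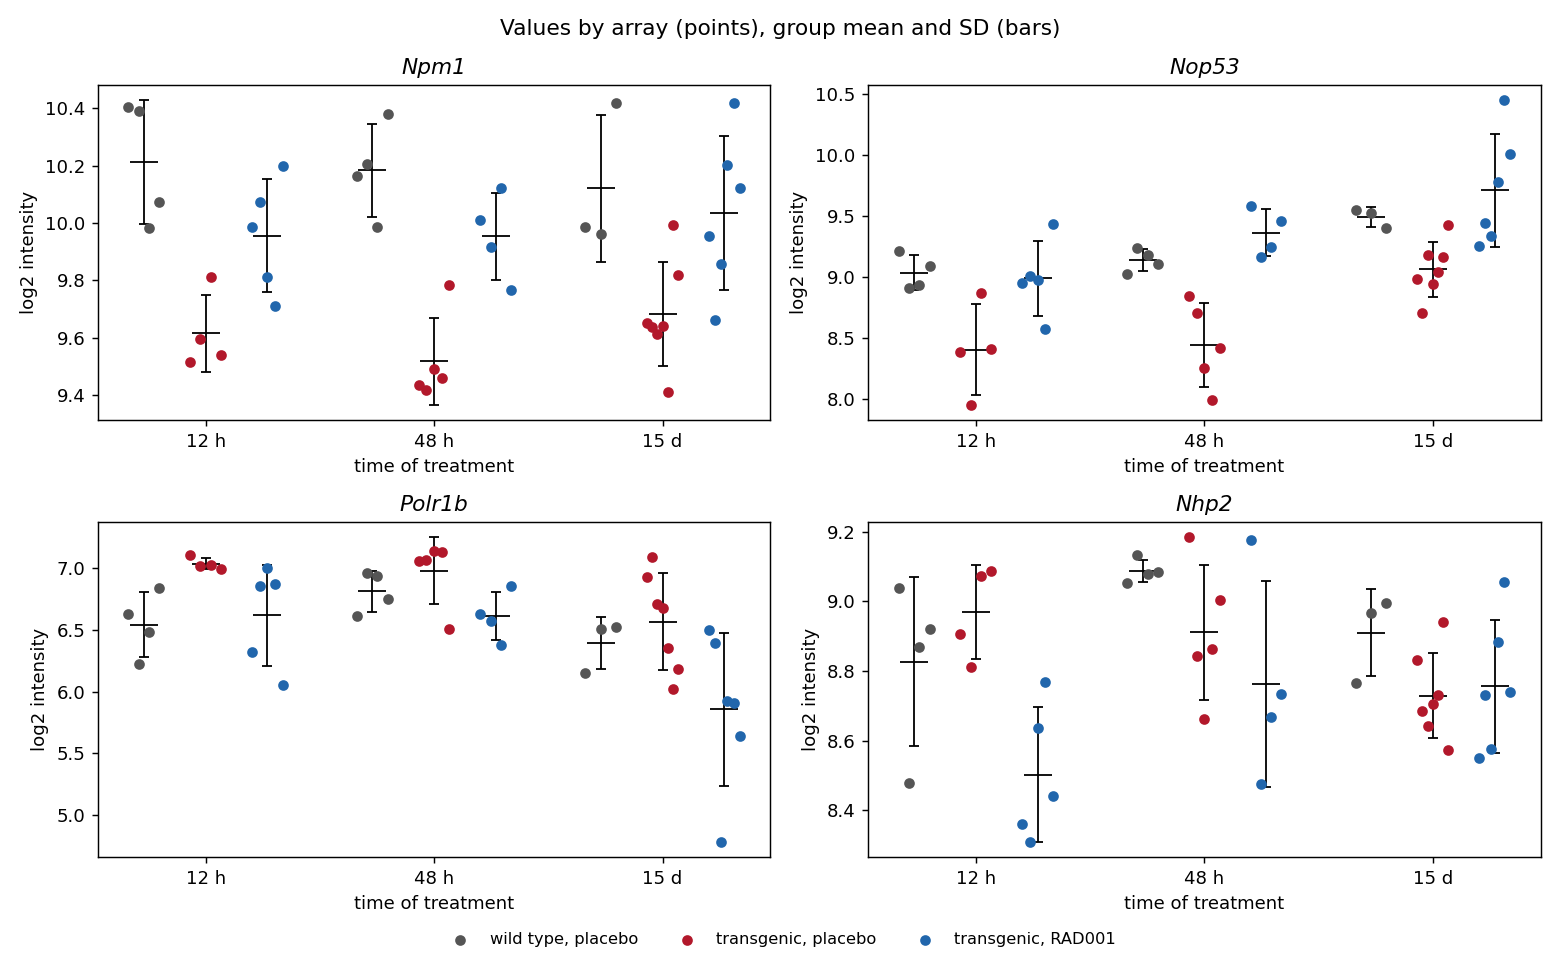
Log2 intensity of Npm1, Nop53, Polr1b and Nhp2 by time in wild type placebo, transgenic placebo and transgenic RAD001 glands; each point is 1 array, and lines and bars give the group mean and SD. RAD001 arrays of Nop53 lie above all transgenic placebo arrays at 48 h, and RAD001 arrays of Nhp2 lie below all transgenic placebo arrays at 12 h.

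Npm1 read 837, 898, 1014, 1078 and 1174 under RAD001 at 12 h, 869.9, 966, 1032 and 1115 at 48 h and from 809 to 1367 with a median of 1053 at 15 d, to be set against the placebo values above. At each time 3 RAD001 arrays stood above all placebo arrays, and the groups overlapped. It rose by 0.38 ± 0.07 (1.30-fold; limma adjusted p = 0.000433), and the second probe set by 0.44 ± 0.09. Taken alone, the 12 h difference was 0.34 ± 0.13 (adjusted p 0.236), the 48 h difference 0.44 ± 0.13 (0.0553) and the 15 d rise 0.35 ± 0.11 (0.0482), all from limma. The 15 d call held in 4 of 13 fits that left out an array, with an adjusted p up to 0.163 without RAD001 replicate 6, and was lost after median scaling (adjusted p 0.0795).

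Averaged over the 3 times, Nop53 showed the widest change of any tested member under RAD001. Its RAD001 arrays read 381, 496, 503, 515 and 693 at 12 h, 572, 608, 706 and 765 at 48 h and from 609.9 to 1400.4 with a median of 789 at 15 d. All 4 arrays at 48 h exceeded every placebo array, as did 4 of 5 at 12 h and 4 of 6 at 15 d. The rise was 0.72 ± 0.11 (1.65-fold; limma adjusted p = 1.41e-05). By time it was 0.59 ± 0.19 at 12 h (adjusted p 0.132), 0.92 ± 0.19 at 48 h (0.00561) and 0.65 ± 0.16 at 15 d (0.0113), of which the last 2 passed. The 15 d call was lost without RAD001 replicate 6 (0.0578). Here too the other probe sets differ, with 0.00 ± 0.29 for 1451121_a_at, which reads 0 on RAD001 15 d replicate 6, and 0.13 ± 0.09 for 1452409_at.

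Polr1b, the second-largest subunit of RNA polymerase I, was the only member that fell under RAD001 on average, by 0.50 ± 0.13 (1.41-fold; limma adjusted p = 0.00945). Placebo arrays read 127, 129.6, 130.1 and 137 at 12 h, 90.6, 133, 134, 139.9 and 141 at 48 h and from 65.0 to 136 with a median of 102 at 15 d. RAD001 arrays read 66.4, 79.7, 116, 117 and 128 at 12 h, 83.2, 95.2, 99.1 and 116 at 48 h and from 27.5 to 90.6 with a median of 60.3 at 15 d. Every RAD001 array was below the placebo mean of its time, yet the groups overlapped each time. Only the 15 d fall of 0.71 ± 0.20 passed alone (limma adjusted p = 0.0255), and it was lost without RAD001 replicate 3 (0.0901) or 7 (0.0584) and with values floored at 64 units (adjusted p 0.107). The gene is dim, near the log2 level of 6.20 below which probe sets were not tested, and the largest subunit Polr1a read 0.01 ± 0.22 with no call.

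At 15 d, 4 of 26 members were called, Ncl, Npm1 and Nop53 up and Polr1b down, against a background of 5.53% (2.42% up, 3.1% down). Ncl, which binds nascent rRNA precursor, read from 834 to 1159.9 with a median of 952 under RAD001 and from 480.0 to 883 with a median of 752 on placebo, where 4 RAD001 arrays stood above all placebo arrays. It rose by 0.46 ± 0.14 (limma adjusted p = 0.0374), a call that held in 6 of 13 fits that left out an array and reached an adjusted p of 0.11 without RAD001 replicate 6. Another Ncl probe set read 0.33 ± 0.20 and was not called (limma adjusted p = 0.366). The array sets gave different sizes. Within set B (5 placebo, 4 RAD001 arrays) Npm1 differed by 0.45, Nop53 by 0.74, Ncl by 0.62 and Polr1b by -0.83, with limma adjusted p-values of 0.0291, 0.0181, 0.0271 and 0.0145. Within set A (2 arrays each) the differences were 0.16, 0.51, 0.10 and -0.56, in the same order of genes, and none passed (0.98, 0.63, 0.999 and 0.519). The count of members called was 1 without RAD001 replicate 6 or 7 and 2 without placebo replicate 8 or RAD001 replicate 1 or 4. The median over members at 15 d was 0.04 (0.02 over all probe sets), and -0.01 with set A only.

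At 12 h of RAD001 20 of 26 members read below placebo (6202 of 13574 probe sets did so), with a median of -0.18 against 0.02 over all probe sets, yet only Nhp2 was called, against a background of 1.47% (0.626% up, 0.84% down). Nhp2, which binds the guide RNA of box H/ACA particles, read 317, 329, 347, 398 and 436 under RAD001 and 449, 479.6, 539 and 544 on placebo. No array overlapped. The dimmer Nhp2 probe set read -0.52 ± 0.18 with overlapping groups and was not called (limma adjusted p = 0.182). The brighter one fell by 0.47 ± 0.12 (limma adjusted p = 0.0446). The call was close to the threshold, holding in 1 of 9 fits that left out an array (without RAD001 replicate 4) and reaching 0.133 in the others; it was lost after quantile normalization (adjusted p 0.0585). The promoter of Nhp2 is among those printed above with the CCGGAAG letters, as is that of Gar1, which read -0.09 ± 0.21 at 12 h. The Nop56 window holds none, and a part of the motif in these values was not tested.

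The box C/D core was low on the same arrays. Fbl read 269, 296, 304, 310.2 and 315 under RAD001 against 341, 358, 364 and 379 on placebo, and Nop56 read 61.2, 62.4, 66.0, 70.4 and 87.1 against 92.7, 107, 118 and 158. Nop58 read 98.8, 99.6, 105, 113 and 114 against 121, 129, 137 and 156. All RAD001 arrays of these 3 genes were below all placebo arrays, and the same held for Ppan, a large-subunit factor too dim to be tested, at 11, 13.7, 20.5, 22.4 and 23.9 against 42.9, 43.3, 44.1 and 51.7. The share of all probe sets without overlap between these groups is not given, so the separation only describes these genes. The dimmer Fbl probe set fell by 0.48 ± 0.12 (limma adjusted p = 0.0349), while the brighter read -0.27 ± 0.13 (0.405). Nop56 had the widest difference at this time, -0.76 ± 0.22, without passing (0.0775), and Nop58 read -0.35 ± 0.22 (0.601). The brighter Ddx21 probe set was the opposite case, with 130.2, 135, 144, 149 and 152 above all placebo values of 115, 116, 118 and 129.7. Its difference of 0.24 ± 0.13 did not pass. The dimmer Ddx21 probe set read -0.07 ± 0.22 with overlapping groups and was not called.

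**Figure D3:**
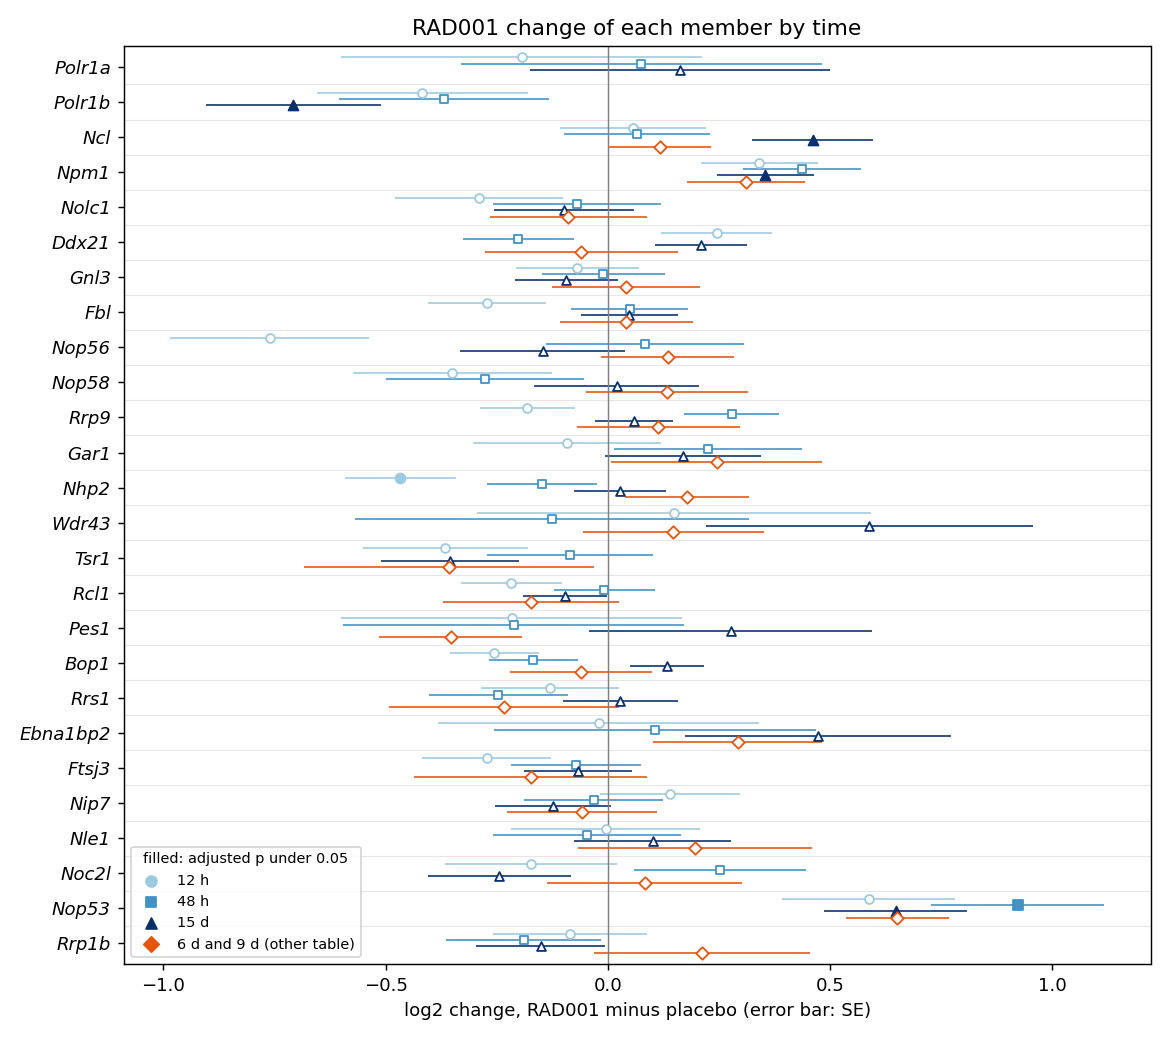
RAD001 minus placebo difference in mean log2 intensity in transgenic glands, 1 line per member, with a marker and standard error for 12 h, 48 h, 15 d and, from the smaller table, 6 d and 9 d together; filled markers passed at an adjusted p under 0.05. At 12 h 20 of 26 markers lie left of 0, against 16 of 26 at 48 h and 10 of 26 at 15 d.

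At 48 h only Nop53 was called of 26 members (background 3.45%, of which 1.97% up and 1.47% down), the member median was -0.04 against 0.00 over all probe sets, and the count was 2 without placebo replicate 5. Of the box C/D genes that were low at 12 h, Fbl read 0.05 ± 0.13 at 48 h (-0.18 ± 0.12 for its dimmer probe set), Nop56 0.08 ± 0.22 and Nop58 -0.28 ± 0.22, and the box H/ACA gene Nhp2 read -0.15 ± 0.12. None of these passed. A test of whether the RAD001 effect differed between the 3 times called no member (limma; 5 of 26 at an unadjusted p under 0.05, background 0.398% adjusted, 12.4% unadjusted), so a difference between the times is not shown for any of them.

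In the smaller table, 7 RAD001 arrays of 6 d and 9 d were compared with 2 placebo arrays. No member of 26 tested was called by limma, against a background of 0.803%, and 2 had an unadjusted p under 0.05 (background 9.87%). Nop53 read 698, 725 and 734 at 6 d and 690.5, 737, 808 and 893 at 9 d under RAD001 and 494 and 459 on placebo. All RAD001 arrays were above both placebo arrays, and the difference of 0.65 ± 0.12 missed the threshold. The fit rests on few arrays. Its 5 residual degrees of freedom all come from RAD001 arrays, since each placebo time holds 1 array. The errors and p-values of this fit thus measure no spread between placebo animals. The Nop53 probe set 1451121_a_at differed by 0.45 ± 0.19 and was not called. Npm1 read 1173, 1206 and 1296 and 959, 1132, 1159 and 1389 against 898 and 1018, a difference of 0.31 ± 0.13. Polr1b was too dim for a test there, at 0, 47.6 and 60.4 at 6 d and 55.3, 69.4, 71.9 and 76.5 at 9 d against 77.9 and 71.7, and the value of 0 belongs to the array with 812 zeros.

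Smooth muscle markers moved with RAD001 as well: 7 of 12 rose, with sums of 8722 to 14047 under RAD001 against 5706 to 9581 on placebo. Fibroblast markers rose in 3 of 11 (sums 4320 to 7961 against 3472 to 5934), basal markers in 2 of 7, and 2 of 13 luminal markers fell (sums 20578 to 31306 against 21147 to 35304). The part of these markers in the rises of Npm1 and Nop53 was not tested.

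Setting RAD001-treated transgenic glands beside wild type placebo glands gives the values reached under treatment. Averaged over the 3 times, 7 of 26 members differed, 1 up and 6 down (background 22.2%, with 11.2% up and 11% down), with a median of -0.10 against -0.02 over all probe sets. Npm1 did not pass (-0.19 ± 0.08, limma adjusted p = 0.0793) and Nop53 read 0.13 ± 0.12. Rrp1b fell by 0.50 ± 0.10, Gar1 by 0.44 ± 0.13, Tsr1 by 0.35 ± 0.11 and Nhp2 by 0.27 ± 0.07. Rrs1, which helps place the 5S ribonucleoprotein, fell by 0.31 ± 0.09 and Bop1 by 0.19 ± 0.06, while Ddx21 rose by 0.20 ± 0.07. The dimmer probe sets of Ddx21 and Nhp2 read -0.12 ± 0.13 and -0.13 ± 0.11, and neither was called. The Ddx21 call (limma adjusted p = 0.0495) was lost after median scaling (adjusted p 0.08) and held in 7 of 26 fits that left out an array, and the Tsr1 call was lost without wild type 15 d replicate 2 (0.0512). With the array set as a block the Ddx21 and Bop1 calls were lost (0.0532 and 0.0611), while Npm1, at -0.23 ± 0.08 (limma adjusted p = 0.0339), and Gnl3, at -0.24 ± 0.07, passed.

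Placebo glands alone were compared between 48 h and 12 h, since the genotype differences of some members changed between these times. The arrays are those of the genotype comparison. The wild type 12 h values thus enter the 12 h genotype differences, the wild type changes and the test of the genotype difference over time. These results are therefore not independent. In wild type glands 5 of 26 members rose and none fell (background 16.4%, with 9.29% up and 7.15% down), 21 of 26 differences were above 0, and the median was 0.32 against 0.02 over all probe sets. In transgenic glands none of 26 was called (limma; 2 at an unadjusted p under 0.05; background 0% adjusted, 4.6% unadjusted), and the median was -0.00 against 0.01 (0.01 over the members after quantile normalization). The wild type rise covered the box C/D genes Fbl and Nop56, the box H/ACA gene Gar1, Tsr1 and Rrs1.

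**Figure D4:**
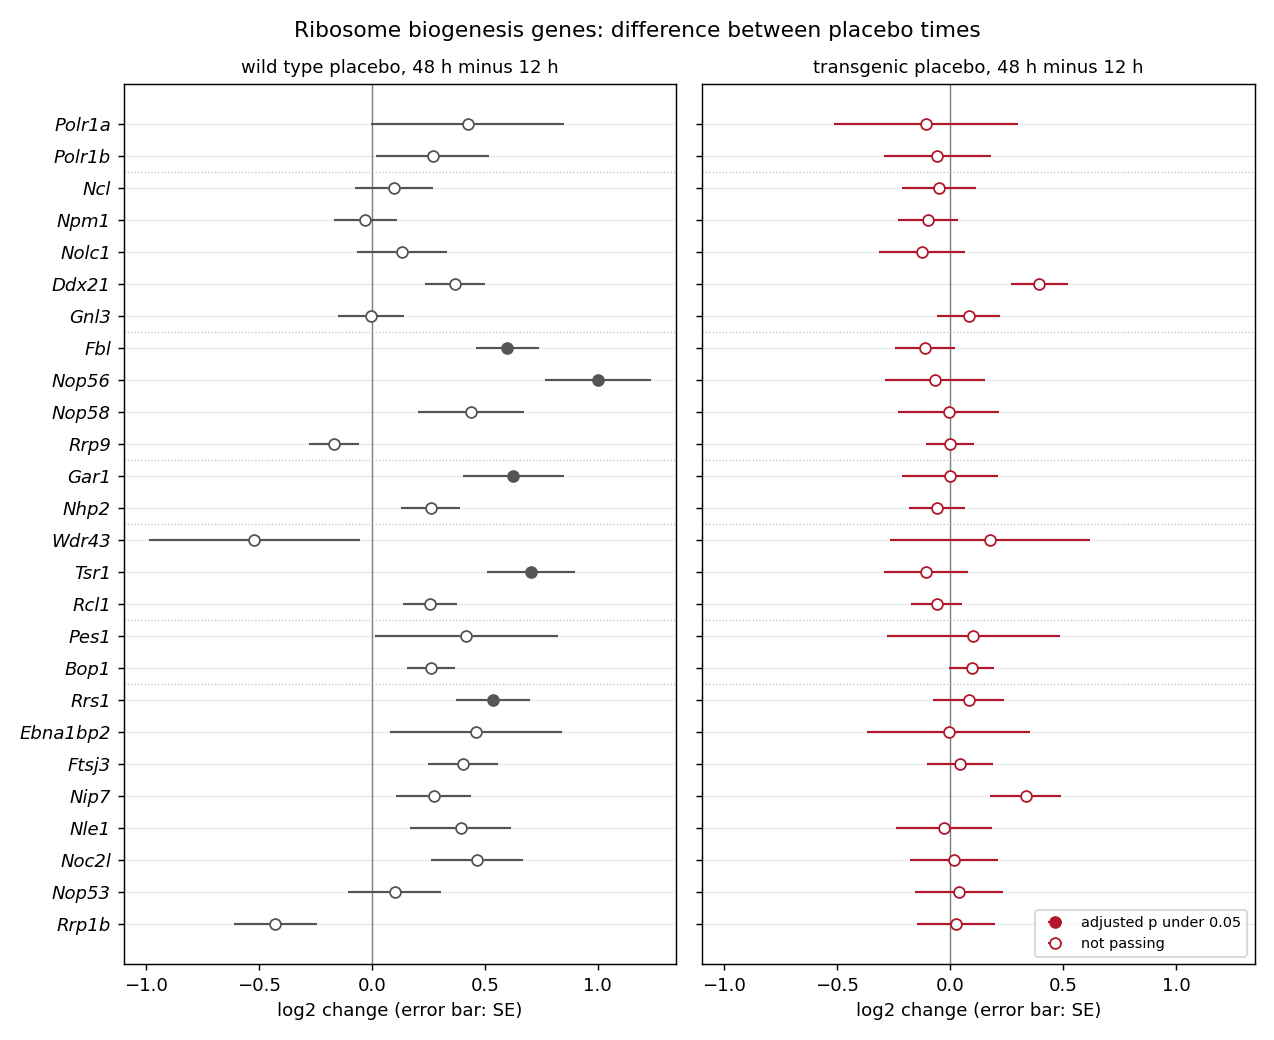
Difference in mean log2 intensity between 48 h and 12 h of placebo for each of the 26 members tested, in wild type (left) and transgenic (right) glands, with standard errors of the limma fit; filled points passed at an adjusted p under 0.05. In wild type glands 21 of 26 points lie right of 0; in transgenic glands 12 do.

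Nop56 read 69.8, 69.9, 76.1 and 94.2 at 12 h and 148, 152, 153 and 163 at 48 h in wild type glands, and 92.7, 107, 118 and 158 and 85.3, 86.3, 102, 120.4 and 189 in transgenic glands. The wild type times did not overlap and the transgenic times did. In wild type it rose by 1.0 ± 0.24, which is 2.00-fold (limma adjusted p = 0.00366), against -0.07 ± 0.22 in transgenic glands. A second Nop56 probe set differed by 0.16 ± 0.13 in wild type and was not called. Fbl read 181, 192, 263 and 336 at 12 h and 323, 344, 369.9 and 394 at 48 h in wild type glands, where 1 array of 12 h reached into the 48 h range. It rose by 0.60 ± 0.14 (limma adjusted p = 0.00335) and read -0.11 ± 0.13 in transgenic glands. The dimmer Fbl probe set read 0.30 ± 0.13 in wild type and was not called (limma adjusted p = 0.113). The rises of the brighter Nop56 and Fbl probe sets held in every fit that left out an array.

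**Figure D5:**
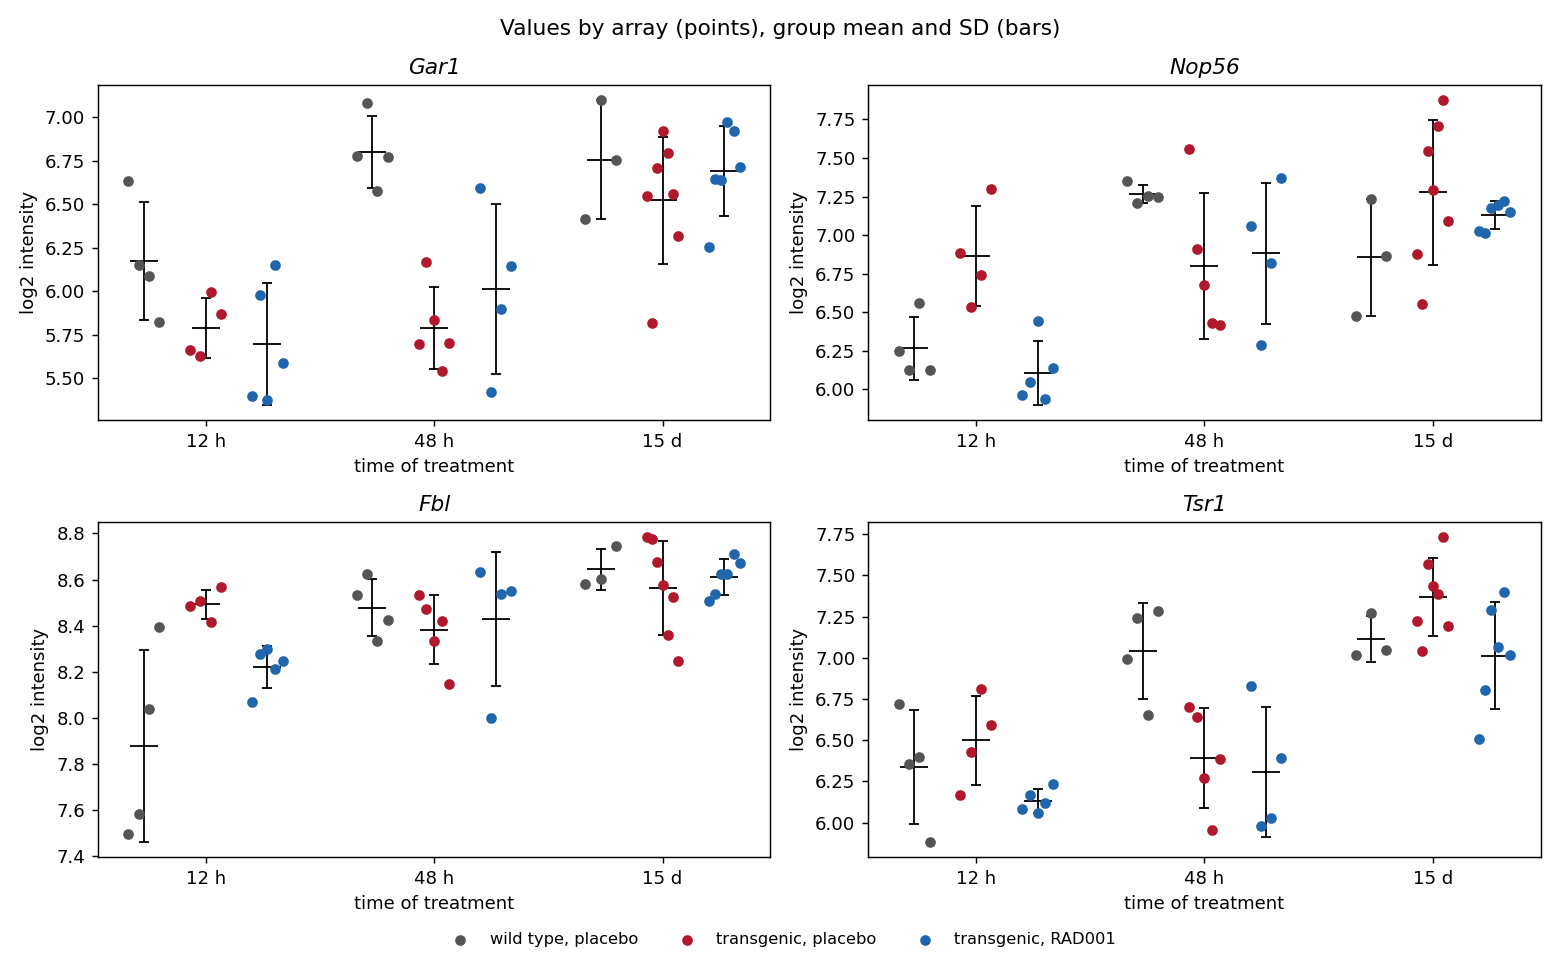
Log2 intensity of Gar1, Nop56, Fbl and Tsr1 by time in wild type placebo, transgenic placebo and transgenic RAD001 glands; each point is 1 array, and lines and bars give the group mean and SD. Wild type arrays of Nop56 at 48 h all lie above wild type arrays at 12 h.

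Gar1, Tsr1 and Rrs1 rested more on single arrays. Gar1 rose by 0.63 ± 0.22 in wild type (limma adjusted p = 0.0489), held in 2 of 8 fits that left out an array, and reached 0.152 without 12 h replicate 4. Tsr1 read 59.0, 81.8, 84.3 and 106 at 12 h and 101, 127, 151 and 156 at 48 h, with an overlap of 1 array, and rose by 0.71 ± 0.20, lost without 12 h replicate 4 (0.0658). Rrs1 read 118, 144, 146 and 161 and 191, 207, 209 and 213, with no overlap, and rose by 0.54 ± 0.16, lost without 12 h replicate 1 (0.0871) or 48 h replicate 2 (0.0573). The count of members called was 3 without 48 h replicate 2. In transgenic glands the 3 genes read 0.00 ± 0.21, -0.11 ± 0.19 and 0.08 ± 0.16. The 3 members too dim to be tested also read higher at 48 h in wild type: Ppan read 20.6, 21.8, 37.8 and 39.5 at 12 h and 59.1, 62.0, 65.2 and 65.9 at 48 h, Utp20, a small-subunit processome protein, 75.9, 76.6, 81.5 and 90.9 and 95.1, 97.0, 109 and 127, and Wdr12 of the PeBoW complex 47.8, 57.5, 58.1 and 73.3 and 79.5, 89.3, 89.7 and 109, with no overlap in any of the 3. The other Wdr12 probe set, dimmer still, read 15.7, 18.4, 21.1 and 21.7 and 16.5, 17.8, 19.1 and 20.6, with overlap and 3 of 4 arrays of 48 h below the 12 h mean. The share of all probe sets without overlap between the wild type times is not given. These times also stood apart over all genes, as described below, so the lack of overlap only describes these members.

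The test of whether the genotype difference varied over 12 h, 48 h and 15 d called 3 of 26 members, Fbl (limma adjusted p = 0.0114), Tsr1 (0.022) and Nop56 (0.0298), against a background of 21.3%. Tsr1 was lost without wild type 48 h replicate 2 (0.0564), wild type 48 h replicate 4 (0.058) or transgenic 48 h replicate 4 (0.0525), Nop56 held in 22 of 27 fits that left out an array, and Fbl in all 27. With the array set as a block Fbl and Nop56 were called and Tsr1 was not (adjusted p 0.0587), against a background of 9.91%. Without transgenic 48 h replicate 4 only 1 member was called. The dimmer probe sets of Fbl and Nop56 were not called in this test (limma adjusted p = 0.195 and 0.192). Wild type 12 h arrays as a group stood apart from wild type 48 h arrays over all genes, at -30.1 to -18.2 and -6.09 to 3.16 on the first principal component, while transgenic placebo arrays of 12 h (-26.9 to -16.4) and 48 h (-28.5 to -14.9) did not. Of 10 cell cycle markers 3 rose from 12 h to 48 h in wild type, with sums of 1689 to 2176 and 2078 to 2602, and 2 of 7 basal markers rose. Their part in the wild type rises was not tested.

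The other genes of the pathway come from a list of 123 that the arrays measure. Of 102 tested in the larger table, 25 differed by genotype (6 up, 19 down), beside the 33.5% of all probe sets. The RNase P and MRP subunit Pop5 fell by 0.68 ± 0.08, the U3 protein Imp3 by 0.52 ± 0.08, Nol7 by 0.35 ± 0.07 and Wdr74 by 0.32 ± 0.06. Efl1, a GTPase that frees the large subunit for translation, rose by 0.47 ± 0.09 and Rrp7a by 0.36 ± 0.07. By time, 11 passed at 12 h (5 up, 6 down), 29 at 48 h (4 up, 25 down) and 17 at 15 d (6 up, 11 down). These are 10.8%, 28.4% and 16.7% of the 102, beside 21%, 25.6% and 21% of all probe sets. From 12 h to 48 h of placebo 26 of 102 changed in wild type glands (21 up, 5 down), which is 25.5% beside 16.4% of all probe sets. In transgenic glands none was called (limma, 5 at an unadjusted p under 0.05), with a background of 0% adjusted and 4.6% unadjusted. The genotype difference varied over time in 26, which is 25.5% beside 21.3% of all probe sets.

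With RAD001, 9 of the 102 changed on average (5 up, 4 down; background 10.3%). The large-subunit factor Znf622 rose by 0.45 ± 0.07, Imp3 by 0.31 ± 0.08 and Sbds, the partner of Efl1, by 0.28 ± 0.06. Ccdc86 fell by 0.36 ± 0.09, the exosome subunit Exosc4 by 0.28 ± 0.09 and Nop10 by 0.21 ± 0.05. At 12 h Nop10 alone was called of the 102, a fall of 0.44 ± 0.09 (limma adjusted p = 0.00548), and 73 of the 102 read below placebo. Nop10 is a box H/ACA protein, as are Nhp2 and Gar1, and Gar1 read -0.09 ± 0.21 at 12 h without a call. Znf622 alone passed at 48 h, with a rise of 0.61 ± 0.12, and 4 passed at 15 d (3 up, 1 down). Of all probe sets 1.47%, 3.45% and 5.53% were called at 12 h, 48 h and 15 d, and 6202 of 13574 read below placebo at 12 h. None of 109 passed at 6 d and 9 d (limma, 4 at an unadjusted p under 0.05), with a background of 0.803% adjusted and 9.87% unadjusted.

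Regulators upstream of the pathway were read on the same arrays. Myc, a transcription factor with many nucleolar targets, fell by 0.22 ± 0.07 in transgenic glands (limma adjusted p = 0.00864) and rose by 0.38 ± 0.06 under RAD001 (3.24e-05). Eif4ebp1, the translational repressor that mTOR phosphorylates, fell by 0.32 ± 0.10 and Rps6, the ribosomal protein downstream of mTOR, by 0.32 ± 0.11 with genotype. Neither was called under RAD001 (0.10 ± 0.09 and 0.30 ± 0.10). The polymerase I initiation factors Rrn3 and Ubtf read 0.04 ± 0.14 and -0.18 ± 0.10 by genotype and 0.05 ± 0.13 and -0.06 ± 0.09 under RAD001, and none of these 4 values passed. The genotype differences of Rps6 and Ubtf varied with time (limma adjusted p = 0.0187 and 0.0447). Rps6 differed by -0.24 ± 0.20 at 12 h, -0.88 ± 0.19 at 48 h and 0.16 ± 0.20 at 15 d, of which the 48 h value passed. Ubtf read -0.44 ± 0.18, 0.28 ± 0.17 and -0.39 ± 0.18, none called, and fell by 0.76 ± 0.18 from 12 h to 48 h in wild type glands (limma adjusted p = 0.00417).

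Some members had a dimmer probe set that was called where the brightest was not, as given above for Rrp1b at 48 h. Among them was Nolc1 1450087_a_at, which rose with genotype by 0.62 ± 0.19 at 12 h and 0.59 ± 0.18 at 48 h and fell by 0.52 ± 0.18 at 15 d, and whose genotype difference varied with time (limma adjusted p = 0.00363), whereas the brighter Nolc1 probe set was called at none of these times. Nip7 1453324_at rose by 0.48 ± 0.15 at 15 d, where the brighter Nip7 probe set read 0.41 ± 0.16 without a call. In wild type glands Nhp2 1416605_at and Ddx21 1448270_at rose from 12 h to 48 h by 0.55 ± 0.19 and 0.68 ± 0.23, and the brighter probe sets of both genes read 0.26 ± 0.13 and 0.37 ± 0.13. Among the members without any call of their brightest probe set in these comparisons, Pes1, Wdr43, Ebna1bp2 and Polr1a each read 0 on at least 1 array; without the arrays holding many zeros Pes1 passed by genotype, with a difference of 0.27 ± 0.07 (limma adjusted p = 0.0048).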

How the data were processed

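RNA of 51 ventral prostate samples was hybridised to Affymetrix arrays, 1 array per sample. The deposited values are intensities per probe set on a linear scale. Per the labels' protocols biotinylated cRNA was made from total RNA extracted with Trizol; how the authors summarised and scaled the probe values is not stated in any source used, and array medians were alike within each table. The larger table holds 42 arrays (12 h, 48 h, 15 d), the smaller 9 (6 d, 9 d), with 22626 probe sets each. Of these 20380 have 1 gene symbol, 691 several and 1555 none; 2 probe sets with values out of range were dropped from the larger table. The members and lists were chosen with earlier results of these data known.

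Intensities below 16 were set to 16 and turned to log2. Probe sets whose mean log2 value was under the table's 40th percentile were left out, leaving 13574 and 13576, and a mean per group was fitted over all arrays of a table with limma 3.58.1 (R 4.3.3), eBayes with a trend, and Benjamini-Hochberg adjustment over all probe sets kept; called means an adjusted p under 0.05. All 31 members could be named, and of 123 other pathway genes up to 6 with the smallest p per main comparison, with upstream regulators and markers. Replicate numbers are shared between groups, but not every same-numbered pair deviated together, so no pairing was used; correlations of deviations ran from -0.25 to 0.51, with the highest median, 0.24, between RAD001 and placebo at 15 d (0.019 for different numbers). The fit was tested on simulated data. A log2 change of 0.5 was recovered in 77.7% of changed probe sets for genotype and 80.3% for RAD001 on average. For RAD001 it was recovered in 32.5% at 12 h, 35.5% at 48 h, 51.5% at 15 d and 0% at 6 d and 9 d. A change of 1 was recovered in 51.1% at 6 d and 9 d and in 81.8% to 96.8% in the other fits. Alternatives were the filter, the floor, quantile normalization, median scaling, 1 probe set per gene, array weights, a replicate block, array sets, arrays with many zeros, the compared groups alone and each array left out; the 2 array sets taken alone were added after seeing the data. Upstream sequences are RefSeq's (GRCm38.p6), and their motifs were chosen after the values were seen.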

Additional observations from a re-analysis of the deposited data

Results flagged for a closer look

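In 16 of 234 groups of 4 to 10 arrays a member's highest or lowest array stood apart from the rest by Dixon's criterion, which chance does in about 1 group of 20. Arrays with many zeros account for 6 of them: transgenic placebo 15 d replicate 9 read 0 for Ebna1bp2 and Pes1, replicate 8 read 0 for Wdr43 and 93.8 for Polr1a, and RAD001 9 d replicate 3 read 109 for Ddx21 and 286 for Nle1. Among transgenic placebo arrays, 12 h replicate 1 read 263 for Bop1, 12 h replicate 4 read 239 for Gnl3, 15 d replicate 10 read 132 for Ddx21, and 48 h replicate 5 read 881 for Npm1 and 90.6 for Polr1b. Under RAD001, 15 d replicate 1 read 236 for Polr1a, 48 h replicate 2 read 256 for Fbl and 48 h replicate 4 read 128 for Rrp1b. In wild type glands 12 h replicate 1 read 0 for Polr1a and 48 h replicate 3 read 141 for Ebna1bp2.

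The genotype difference varied between 12 h, 48 h and 15 d for Fbl (limma adjusted p = 0.0114), Tsr1 (0.022) and Nop56 (0.0298), whose values are given above.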

How the results depend on the processing

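Without arrays with many zeros, the number of members called became 8 at 12 h by genotype, 1 at 15 d by genotype, 2 at 12 h, 2 at 48 h and 2 at 15 d of RAD001, 9 for wild type 48 h against 12 h and 5 for genotype by time. Array weights gave 8 at 48 h by genotype, 5 at 12 h and 3 at 48 h of RAD001, 9 for wild type 48 h against 12 h, 6 for genotype by time and 1 at 6 d and 9 d. With only the compared groups in the fit it was 8 at 48 h and 0 at 15 d by genotype, 0 at 12 h and 0 at 15 d of RAD001, and 13 for wild type 48 h against 12 h. The replicate block, whose numbers do not pair the samples by the rule used, gave 1 at 15 d by genotype, 0 at 12 h and 2 at 15 d of RAD001, and 8 for wild type 48 h against 12 h. For genotype by time it called 3, of which only Fbl was called without it, and lost Nop56 and Tsr1 (limma adjusted p 0.0645 and 0.0786). Other calls named above that it lost were Rrp9 by genotype (0.101) and at 15 d (0.347), Nhp2 at 12 h (0.0564) and Ncl and Npm1 at 15 d of RAD001 (0.461 and 0.0974), Ddx21 against wild type (0.0704) and Gar1 over time in wild type (0.0615). Set A alone gave 1 by genotype and 0 for RAD001 at 15 d. No filter or median scaling gave 1 at 15 d by genotype, no filter or quantile normalization 0 at 12 h of RAD001, and a floor of 64, median scaling or 1 probe set per gene 1 at 6 d and 9 d. The cause was not tested. All other alternatives to these counts stayed within 1.5 times, though not always with the same members, and those for genotype, RAD001 on average and RAD001 against wild type did so throughout apart from arrays left out.

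With each array left out in turn the counts ran from 2 to 6 for genotype at 12 h, 0 to 6 at 15 d, 3 to 5 for RAD001, 0 to 1 at 12 h, 1 to 2 at 48 h, 1 to 4 at 15 d, 3 to 6 for wild type 48 h against 12 h and 1 to 4 for genotype by time. Polr1a between 48 h and 12 h in wild type turned from 0.42 to -0.55 (limma adjusted p 0.0286) without 12 h replicate 1, where it reads 0, and ran from -0.55 to 0.79. Ngdn at 48 h of RAD001 turned from -0.24 to 0.82 (0.0183) without RAD001 replicate 4, and ran from -0.64 to 0.82. Leaving out either placebo array of 6 d or 9 d left no group mean and was not run.

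Over all probe sets, array weights raised the calls for genotype at 48 h from 3471 to 5313, for RAD001 from 1392 to 2220, at 12 h from 199 to 1208, at 48 h from 468 to 978, against wild type from 3008 to 4551, for wild type over time from 2232 to 3727, for transgenic placebo over time from 0 to 2, for genotype by time from 2893 to 4552, for RAD001 by time from 54 to 206 and at 6 d and 9 d from 109 to 232, and lowered RAD001 at 15 d from 750 to 413. Genotype at 15 d fell from 2856 to 869 (replicate block), 604 (array set as a block), 758 (compared groups only), 365 (set A) or 1896 (without arrays with many zeros). RAD001 at 15 d fell to 376, 228, 61 and 431 under the block, compared groups, set A and no zero arrays. Compared groups only gave 87 at 12 h, 306 at 48 h and 28 for RAD001 by time. Genotype by time gave 1436 with the replicate block and 1345 with the array set block, and RAD001 by time 137 with the latter and 35 without arrays with many zeros. At 6 d and 9 d the replicate block left 3 and leaving out zero arrays 176, and transgenic placebo over time gave 1 without those arrays. Median scaling moved the split of higher and lower calls for RAD001 from 765 and 627 to 535 and 717, at 12 h from 85 and 114 to 43 and 166, and at 6 d and 9 d from 35 and 74 to 39 and 51. Signals near the floor limit Polr1b, Gar1, Ftsj3 and the untested members.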
